A study of Saccharomyces cerevisiae with 12 samples.

Results

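The genes described here encode 60S assembly factors of budding yeast, proteins that build the large ribosomal subunit and then leave it. They are a fixed list of 39 systematic gene IDs, all present among the 6159 genes of the deposited table, and their rule uses no measured value, although the list was drawn up with earlier results of these data known. Ribosome footprints and mRNA were sequenced from Saccharomyces cerevisiae SK1 cells growing exponentially in YEPD, a rich glucose medium, at 30 °C. The paralogous genes DED1 and DBP1 encode RNA helicases of the DEAD-box family that act in translation initiation, and the series asks how specific each of them is. In the genotype called Ded1, the regulatory regions of DED1 drove DED1. In Dbp1 the same regions drove DBP1, and in 2xDbp1 they drove 4 copies of DBP1, which the submitters describe as meant to match helicase levels. All cultures were exposed to 100 µM cycloheximide, an inhibitor of translation elongation, for 1 minute before harvest. Each genotype had 2 mRNA and 2 footprint libraries, so that every group has n = 2. The labels do not say that these came from separate cultures, and p-values therefore measure only the spread between these libraries. They also give no other difference between the strains.

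Large subunits are assembled on a ribosomal RNA precursor in the nucleolus, where assembly factors fold, modify and cut the RNA while ribosomal proteins bind it. The particles then move to the nucleoplasm, pass through the nuclear pore and shed their last factors in the cytoplasm. In growing yeast the genes for these factors, often called the ribosome biogenesis regulon, are transcribed together and respond to nutrients and growth rate.

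Levels are given in RPKM, the reads of a gene per kilobase relative to the depth of its library, so each is a share of its library: fewer cells with a transcript and less transcript per cell cannot be told apart. Libraries held 5.997 to 8.497 M mRNA reads and 8.7 to 13.11 M footprint reads, as inferred from the steps between low values. Among the 38 factors without an intron, the lowest count this gives is 577 mRNA reads and 327 footprint reads. Depths and counts would be overstated if the true depths lay below the range searched. The helicase genes followed the labels: DED1 footprints were 709.8 and 729.7 RPKM in Ded1, 2.97 and 4.51 in Dbp1, and 3.23 and 2.41 in 2xDbp1. DBP1 footprints were 8.14 and 7.35 RPKM in Ded1, 573.3 and 570.8 in Dbp1, and 921.3 and 942.6 in 2xDbp1. The meiotic and the mating genes examined as signs of other cell states summed to at most 89.9 RPKM of mRNA in any library, over 20 and 17 genes.

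The factors were well expressed genes. In Ded1 their median mRNA level was 204 RPKM against 64.8 RPKM over the 4785 genes measured in both library types, and 37 of 39 lay above that median. Their median footprint level was 192.8 RPKM against 41.5 RPKM, with 38 above it. Footprints per mRNA, the ratio of the 2 RPKM values of a gene and a relative measure of its translational efficiency, had a median of 0.777 against 0.663, and 24 factors lay above the median of all genes. Levels of mRNA and footprints were ordered alike over the 39 factors (Spearman rho 0.826) and over all genes (rho 0.854). Both measures come from the same per-length scale, and genes are not independent replicates.

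**Figure D1:**
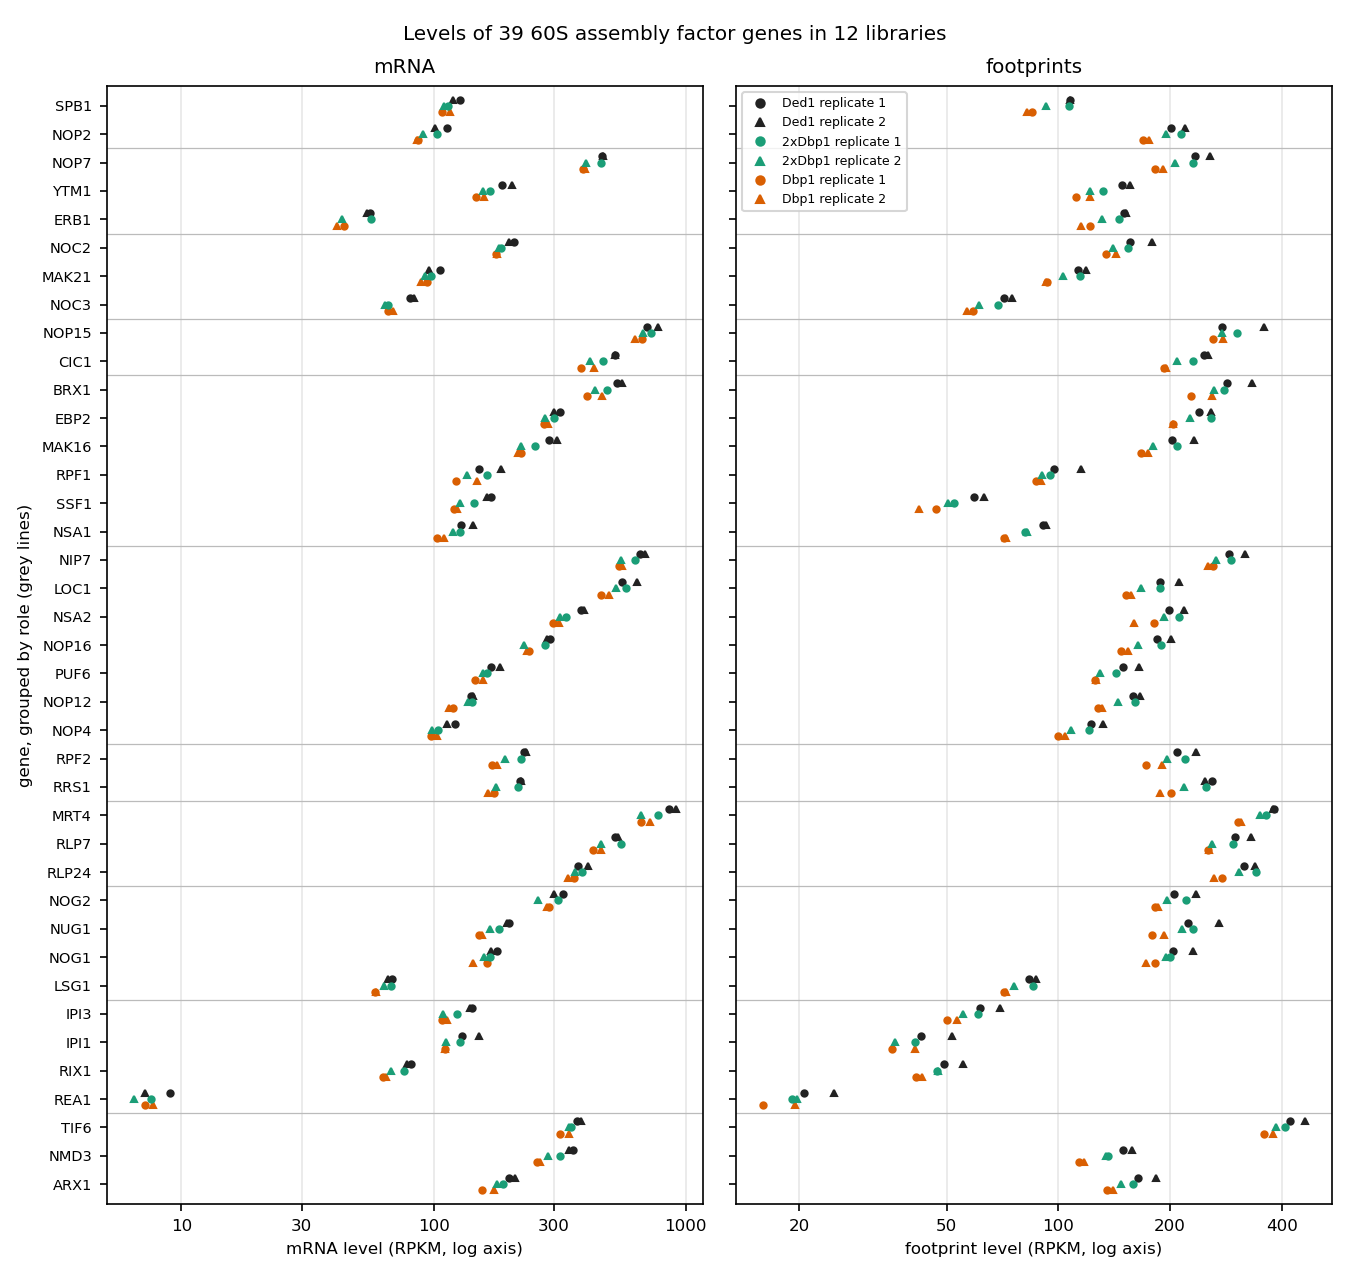
Each point is 1 library, with the mRNA level (left) and the footprint level (right) of the 39 genes in RPKM on log axes. Colours mark genotypes, shapes mark replicates and grey lines separate role groups. In most rows the black Ded1 points lie furthest right and the orange Dbp1 points furthest left, and only REA1 in mRNA and NOP15 in footprints show overlap of Ded1 with Dbp1.

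Among the factors, mRNA levels in Ded1 spanned a 109.4-fold range and footprint levels a 19.4-fold range. A single gene, REA1, set the low end of both ranges. The lower and upper quartiles were closer, at 138.1 and 383.4 RPKM in mRNA and 111.6 and 247.4 RPKM in footprints. The highest mRNA was that of MRT4 (YKL009W), a protein resembling the stalk protein P0 that holds the place of P0 on the nascent subunit, at 858.6 and 910.9 RPKM. NOP15 (YNL110C), which binds the ITS2 spacer of the precursor, followed at 700.7 and 775.0 RPKM. At the low end stood ERB1 (YMR049C) of the Nop7 subcomplex at 56.2 and 54.4 RPKM, and REA1 (YLR106C, also called MDN1) at 9.01 and 7.16 RPKM. REA1 encodes a very large AAA ATPase that pulls factors off the particle. These 4 genes did not overlap with their neighbours in the order of levels, whereas 19 of the 38 neighbouring pairs in that order did.

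Footprint levels were more even. TIF6 (YPR016C), which keeps the large subunit from joining the small one until it is released, was highest at 421.0 and 461.4 RPKM, and MRT4 followed at 381.8 and 378.5 RPKM. The lowest were IPI1 (YHR085W), a subunit of the Rix1 complex of the nucleoplasmic particle, at 42.6 and 51.6 RPKM, and REA1 at 20.6 and 24.8 RPKM. Of the 38 neighbouring pairs in the footprint order, 25 overlapped.

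Footprints per mRNA ran from 0.334 for LOC1 (YFR001W) to 2.88 for REA1 by mean. REA1 had 2.29 and 3.47 footprints per mRNA and ERB1 had 2.67 and 2.8, and these overlap. IPI1 had 0.328 and 0.342, and LOC1, an RNA-binding factor that also acts in the localization of ASH1 mRNA, had 0.338 and 0.33, which overlap as well. REA1 has the longest coding length among the factors, 14733 nt. Over the 38 factors without an intron, footprints per mRNA went with coding length at a Spearman rho of 0.521, against 0.26 over 4601 genes. Length enters both RPKM values, and 30 of 38 neighbouring pairs in this order overlapped between replicates.

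**Figure D2:**
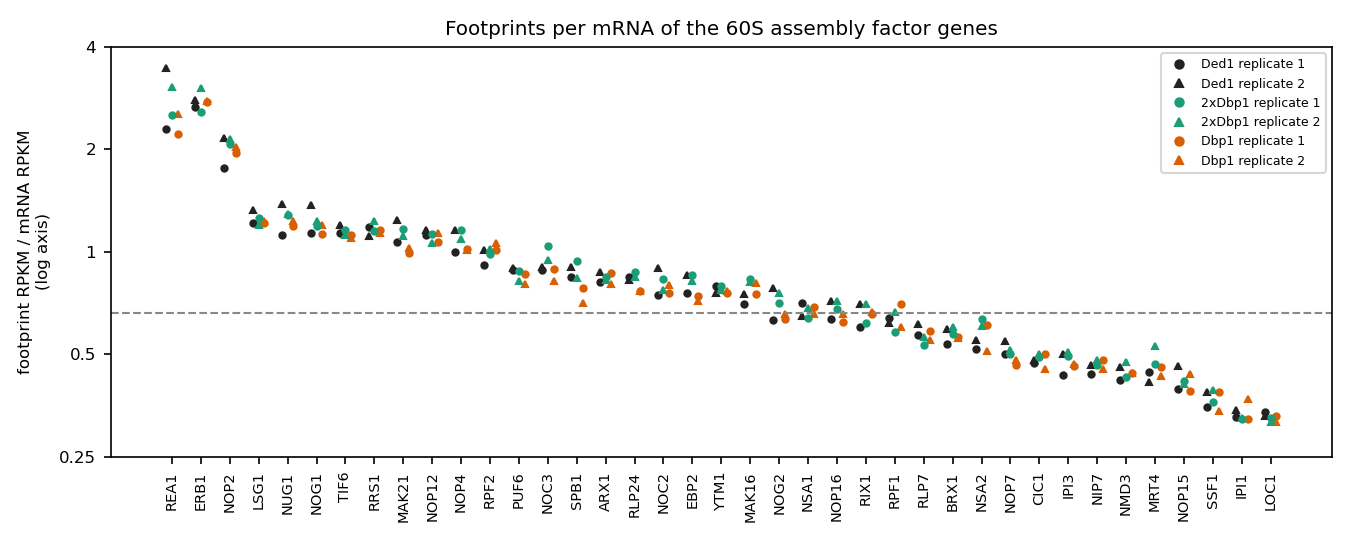
Footprints per mRNA (ratio of RPKM values, log axis) for the 39 genes in the 6 pairs of libraries, by genotype. ERB1 and REA1 stand highest and LOC1 and IPI1 lowest by mean in all 3 genotypes, and the dashed line is the median of all genes in Ded1, 0.663.

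Subunits of 1 complex did not always have similar mRNA levels. NOP7 (YGR103W), ERB1 and YTM1 (YOR272W) form the Nop7 subcomplex, needed for maturation of the 27S precursor. In Ded1 their mRNA was 463.9 and 470.2 RPKM for NOP7, 186.6 and 205.5 for YTM1, and 56.2 and 54.4 for ERB1. The highest exceeded the lowest 8.25-fold in replicate 1 and 8.64-fold in replicate 2. Their footprints were 232.8 and 256.7 RPKM for NOP7, 148.5 and 155.8 for YTM1, and 150.2 and 152.5 for ERB1, a range of 1.57-fold and 1.68-fold. ERB1 and YTM1 thus had overlapping footprint levels despite a wide gap in mRNA. The narrow footprint range held in Dbp1, at 1.64-fold and 1.67-fold, and in 2xDbp1, at 1.75-fold and 1.7-fold.

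The other complexes spanned less in mRNA, and their footprints were not always closer together than their mRNA. RPF2 (YKR081C) and RRS1 (YOR294W), which together bring the 5S ribonucleoprotein into the particle, had mRNA within 1.04-fold of each other in both Ded1 replicates, and footprints within 1.24-fold and 1.06-fold. MAK21 (YDR060W, Noc1), NOC2 (YOR206W) and NOC3 (YLR002C), partner proteins that accompany the particle from the nucleolus outward, spanned 2.58-fold and 2.39-fold in mRNA and 2.19-fold and 2.38-fold in footprints. For RIX1 (YHR197W), IPI1 and IPI3 (YNL182C) of the Rix1 complex, the ranges were 1.74-fold and 1.92-fold in mRNA and 1.44-fold and 1.35-fold in footprints. Footprint RPKM is a density of ribosomes along the coding sequence and not a measured amount of protein.

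**Figure D3:**
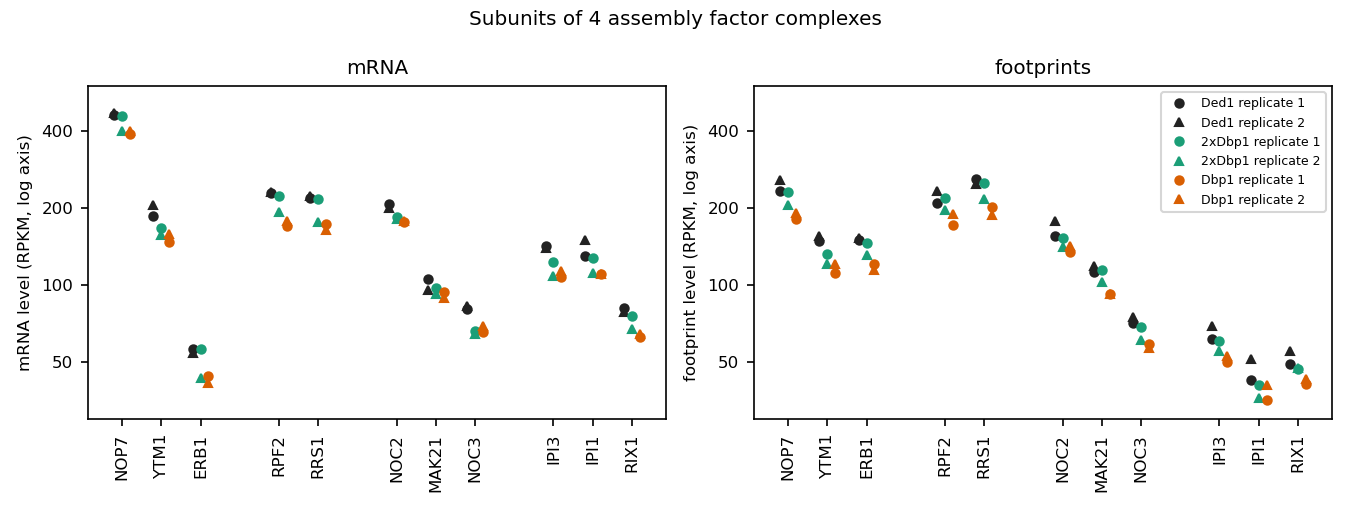
mRNA (left) and footprint (right) levels in RPKM on log axes for the subunits of the Nop7 subcomplex, RPF2 with RRS1, the Noc proteins and the Rix1 complex. Each point is 1 library. NOP7, YTM1 and ERB1 are spread over mRNA and lie close together in footprints in every genotype.

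The first comparison asks what differs when the DED1 regulatory regions drive DBP1 in place of DED1. In Dbp1, mRNA of all 39 factors was below Ded1, and so were footprints of all 39. The median log2 difference was -0.31 in mRNA, a 0.809-fold level, with a range from -0.44 to -0.10. In footprints it was -0.32, a 0.802-fold level, with a range from -0.45 to -0.23. Over all genes tested the medians were 0.04 in mRNA and 0.00 in footprints, and 43% and 49.2% of genes lay below 0.

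Single factors rarely passed the test over all genes. The test was limma on log2(RPKM + 1) at a Benjamini-Hochberg adjusted p under 0.05. In mRNA 0 of 39 factors passed, against 1.52% of all genes and 0.231% that passed as lower. In footprints 1 of 39 passed as lower, against 3.31% of all genes and 0.89% that passed as lower. At an unadjusted p under 0.05, 26 factors were lower in mRNA, where 7.08% of all genes were, and 37 in footprints, where 11.5% were. These counts were lowest without Ded1 replicate 2, at 10 and 13, and without Dbp1 replicate 1 they were 16 and 23. Both Dbp1 replicates lay below both Ded1 replicates for 38 factors in mRNA, against 21% of all genes, and for 38 in footprints, against 26.1%. These shares are side by side as a description, since the factors are not independent of each other.

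**Figure D4:**
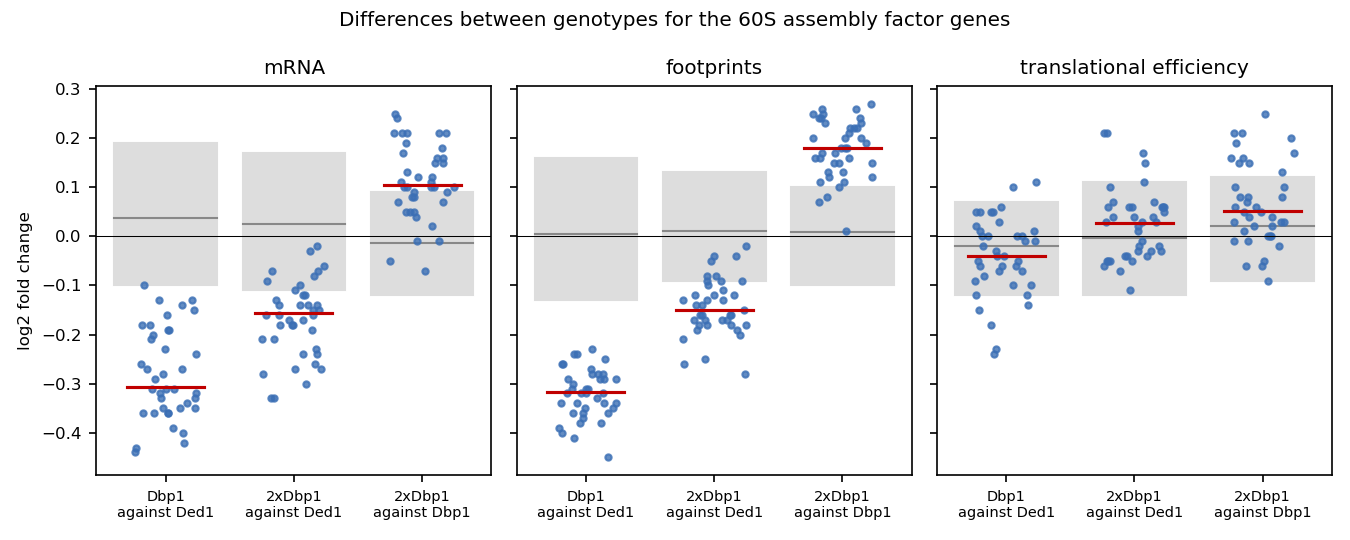
log2 differences of mRNA, footprints and translational efficiency for each comparison of genotypes. Blue points are the 39 genes, red lines their medians, and grey boxes and lines the interquartile range and median of all genes tested. In Dbp1 against Ded1 all blue points lie below 0 in mRNA and footprints, with medians of -0.31 and -0.32, and spread around 0 in translational efficiency.

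The factor that passed was NMD3 (YHR170W), the adaptor that carries the large subunit through the nuclear pore. NMD3 footprints were 149.4 and 157.8 RPKM in Ded1, 113.5 and 117.0 in Dbp1, and 136.4 and 134.7 in 2xDbp1. The 3 genotypes did not overlap, and Ded1 was highest. In Dbp1 they fell by 0.41 on the log2 scale (SE 0.0782, limma adjusted p = 0.0437). That call was lost without any 1 of the 6 footprint libraries, with adjusted p-values from 0.0678 to 0.169, while the difference stayed between -0.45 and -0.37. NMD3 mRNA was 355.7 and 343.0 RPKM in Ded1, 257.3 and 264.5 in Dbp1, and 318.2 and 284.5 in 2xDbp1. Dbp1 again lay below the others, by -0.42 (SE 0.0935, adjusted p = 0.0851). Footprints per NMD3 mRNA were 0.42 and 0.46 in Ded1 and 0.441 and 0.442 in Dbp1, which overlap, with a 95% confidence interval of -0.24 to 0.26 for the log2 difference.

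The other factors of export and the cytoplasm were lower too, without passing. TIF6 footprints were 421.0 and 461.4 RPKM in Ded1, 357.1 and 379.7 in Dbp1, and 406.9 and 384.6 in 2xDbp1. TIF6 differed by -0.26 between Dbp1 and Ded1 (adjusted p = 0.139), with no overlap. ARX1 (YDR101C), which sits at the tunnel exit during export, differed by -0.32 in footprints (adjusted p = 0.103) and -0.31 in mRNA (adjusted p = 0.158).

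SSF1 (YHR066W), MAK16 (YAL025C), NSA1 (YGL111W), RPF1 (YHR088W), EBP2 (YKL172W) and BRX1 (YOL077C) act on early nucleolar particles. SSF1, which binds the early 27S particle, had footprints of 59.2 and 63.1 RPKM in Ded1, 46.8 and 42.2 in Dbp1, and 52.4 and 50.3 in 2xDbp1. The genotypes did not overlap, and the Dbp1 difference of -0.45 was the largest among the factors in footprints (SE 0.0903, adjusted p = 0.0508). SSF1 mRNA was 169.1 and 162.8 RPKM in Ded1, 121.0 and 124.0 in Dbp1, and 145.2 and 127.8 in 2xDbp1, a Dbp1 difference of -0.43 (adjusted p = 0.0888). SSF1 values are uncertain, since reads may be shared with its near-identical paralog SSF2.

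MAK16 and NSA1 belong to 1 module of the early particle. MAK16 mRNA was 286.7 and 307.4 RPKM in Ded1, 221.9 and 215.7 in Dbp1, and 251.5 and 221.2 in 2xDbp1. Its Dbp1 difference of -0.44 was the largest among the factors in mRNA (SE 0.0997, adjusted p = 0.0904). NSA1 footprints were 91.1 and 92.5 RPKM in Ded1, 71.4 and 72.4 in Dbp1, and 81.4 and 82.2 in 2xDbp1. All 3 genotypes were separated, and the Dbp1 difference was -0.35 (SE 0.0756, adjusted p = 0.0608). Over the 6 early factors the differences ran from -0.44 to -0.15 in mRNA and from -0.45 to -0.26 in footprints.

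In the Nop7 subcomplex, all 3 subunits were lower in Dbp1 with no overlap, by -0.36 to -0.24 in mRNA and -0.39 to -0.36 in footprints. NOP7 footprints were 232.8 and 256.7 RPKM in Ded1, 182.2 and 191.8 in Dbp1, and 230.5 and 206.7 in 2xDbp1 (Dbp1 difference -0.39, adjusted p = 0.0803). ERB1 footprints were 150.2 and 152.5 RPKM in Ded1, 121.5 and 114.7 in Dbp1, and 145.7 and 131.2 in 2xDbp1 (adjusted p = 0.0804). YTM1 footprints were 148.5 and 155.8 RPKM in Ded1, 111.4 and 121.6 in Dbp1, and 132.1 and 121.3 in 2xDbp1 (adjusted p = 0.0728). In YTM1 the second 2xDbp1 replicate fell within the Dbp1 range, while in NOP7 and ERB1 both 2xDbp1 replicates lay between Ded1 and Dbp1.

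NOP2 (YNL061W) and SPB1 (YCL054W) methylate the ribosomal RNA of the large subunit. NOP2 mRNA was 113.5 and 101.3 RPKM in Ded1, 86.7 and 86.1 in Dbp1, and 103.4 and 90.8 in 2xDbp1, and its footprints were 200.9 and 219.2, 169.2 and 175.7, and 214.3 and 195.5 RPKM. Both readouts of NOP2 were lower in Dbp1, by -0.31 and -0.28 (adjusted p = 0.184 and 0.129). SPB1 mRNA was 127.5 and 118.9 RPKM in Ded1, 108.4 and 116.5 in Dbp1, and 113.6 and 110.4 in 2xDbp1. SPB1 footprints were 107.4 and 107.3 RPKM in Ded1, 84.7 and 82.5 in Dbp1, and 106.9 and 92.5 in 2xDbp1. The Dbp1 difference of SPB1 was -0.13 in mRNA (adjusted p = 0.483) and -0.36 in footprints (adjusted p = 0.0916).

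NOG1 (YPL093W), NUG1 (YER006W), NOG2 (YNR053C) and LSG1 (YGL099W) are GTPases that act on successive particles, LSG1 in the cytoplasm. NUG1 footprints were 222.8 and 270.1 RPKM in Ded1, 179.2 and 192.0 in Dbp1, and 231.0 and 215.7 in 2xDbp1, and differed by -0.40 in Dbp1 (adjusted p = 0.1). NOG1 footprints were 203.3 and 230.5 RPKM in Ded1, 182.6 and 172.2 in Dbp1, and 200.3 and 194.6 in 2xDbp1, a Dbp1 difference of -0.29 (adjusted p = 0.131). For both, Ded1 and Dbp1 were separated and 2xDbp1 lay above Dbp1. NOG2 and LSG1 differed by -0.25 and -0.24 in footprints. NOG2 levels are uncertain, because its intron holds the small nucleolar RNA gene SNR191 and the counting rules are not given.

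RPF2 and RRS1 differed by -0.40 and -0.39 in mRNA and by -0.29 and -0.38 in footprints. MRT4, RLP7 (YNL002C) and RLP24 (YLR009W), which resemble ribosomal proteins and hold their places, differed by -0.36 to -0.16 in mRNA and -0.31 to -0.28 in footprints. CIC1 (YHR052W), which binds ITS2 with NOP15, differed by -0.36 and -0.37. The 3 Noc proteins differed by -0.28 to -0.14 and -0.34 to -0.27. The 7 RNA-binding factors NOP12 (YOL041C), NOP4 (YPL043W), LOC1, PUF6 (YDR496C), NIP7 (YPL211W), NOP16 (YER002W) and NSA2 (YER126C) differed by -0.35 to -0.21 and -0.36 to -0.24. No gene in these groups passed, and NOP15 footprints were the only overlap between Ded1 and Dbp1 there, at 276.6 and 358.0 RPKM against 260.5 and 277.2.

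REA1 was the exception in mRNA, at 9.01 and 7.16 RPKM in Ded1, 7.18 and 7.69 in Dbp1, and 7.61 and 6.47 in 2xDbp1. The genotypes overlapped (Dbp1 difference -0.10, adjusted p = 0.815). That overlap of Ded1 rests on its replicate 2, since its replicate 1 lay above all Dbp1 and 2xDbp1 libraries. REA1 mRNA was also the lowest among the factors, where log2(RPKM + 1) understates differences most. REA1 footprints were 20.6 and 24.8 RPKM in Ded1, 16.0 and 19.5 in Dbp1, and 19.2 and 19.8 in 2xDbp1, a Dbp1 difference of -0.34 without overlap (adjusted p = 0.19). Its partners in the Rix1 complex differed by -0.34 to -0.32 in mRNA and -0.34 to -0.29 in footprints.

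By median over the factors, footprints and mRNA were lower by similar amounts. The ratio compares the 2 differences gene by gene, but with n = 2 it cannot show that they were equal. Translational efficiency in Dbp1 against Ded1 had a median log2 difference of -0.04 over the factors and -0.02 over all genes. Of the factors 26 lay below 0, where 55.8% of all genes did, and 7 were lower without overlap, where 21.8% of all genes were. Without Ded1 replicate 2, 13 factors lay below 0. None of the 39 passed, against 0.0418% of all genes, and 0 had an unadjusted p under 0.05 in limma, against 3.16% of all genes. Pairing the libraries by number also gave 0 passing factors, against 0.0627% of all genes, and 0 at an unadjusted p under 0.05, against 7.5%. SPB1 had the lowest p, with 0.843 and 0.903 footprints per mRNA in Ded1, 0.781 and 0.708 in Dbp1, and 0.942 and 0.838 in 2xDbp1. It differed by -0.23 (SE 0.125, 95% confidence interval -0.51 to 0.05, adjusted p = 1). In the paired fit the SE of SPB1 was 0.106 (limma adjusted p = 0.669). MAK21 differed by -0.18 and REA1 by -0.24, and the REA1 replicates overlapped.

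The second comparison asks what differs from Ded1 with 4 copies of DBP1. In 2xDbp1 all 39 factors were again below Ded1 in mRNA and in footprints, by a smaller median of -0.16 in mRNA, with a range from -0.33 to -0.02, and -0.15 in footprints, with a range from -0.28 to -0.02. None passed in limma, against 0.077% of all genes in mRNA and 0.0621% in footprints, and 8 and 2 factors were lower at an unadjusted p under 0.05, against 4.87% and 3.21% of all genes. The mRNA count was 1 without 2xDbp1 replicate 2 or Ded1 replicate 2, 5 without Ded1 replicate 1 and 13 without 2xDbp1 replicate 1. The footprint count was 0 without 2xDbp1 replicate 2 or Ded1 replicate 2, 1 without 2xDbp1 replicate 1 and 7 without Ded1 replicate 1. Of all genes 45.2% were below Ded1 in mRNA and 48.1% in footprints. Replicates were lower without overlap for 26 factors in mRNA, against 21.4% of all genes, and for 23 in footprints, against 19.7%.

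The 2xDbp1 replicates differed over the factors. The sum of the 39 mRNA levels was 10739 and 11086 RPKM in Ded1, 8796 and 9113 in Dbp1, and 10225 and 9183 in 2xDbp1. The second 2xDbp1 replicate was thus close to Dbp1 and the first close to Ded1. Summed footprints were 7055 and 7732 RPKM in Ded1, 5877 and 5997 in Dbp1, and 7055 and 6438 in 2xDbp1. The first 2xDbp1 and the first Ded1 replicate had the same summed footprints. With only the first 2xDbp1 replicate, the median difference from Ded1 was -0.09 in mRNA and -0.08 in footprints, and with only the second -0.24 and -0.20. Without Ded1 replicate 2, the footprint median was -0.08. Against Ded1 replicate 1 alone, 37 of the 39 factors were lower in mRNA and 32 in footprints by group mean. With the first 2xDbp1 replicate alone, 35 factors in mRNA and 33 in footprints were below Ded1.

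By single gene, the lowest p in this comparison belonged to NOC3, MAK16 and MRT4 in mRNA. NOC3 mRNA was 80.8 and 83.4 RPKM in Ded1, 65.8 and 69.2 in Dbp1, and 66.2 and 64.4 in 2xDbp1. The Dbp1 and 2xDbp1 libraries overlapped, both below Ded1 (2xDbp1 difference -0.33, adjusted p = 0.249). MAK16 differed by -0.33 (adjusted p = 0.27) and MRT4 by -0.30 (adjusted p = 0.289), MRT4 mRNA being 773.2 and 663.1 RPKM in 2xDbp1. In footprints YTM1 differed by -0.26 (adjusted p = 0.466), SSF1 by -0.25 (0.505) and NMD3 by -0.18 (0.553). Translational efficiency had a median difference of 0.03 against 0.00 over all genes, with 4 factors lower and 5 higher without overlap, where 23.6% and 19.7% of all genes were, and 0 passed, against 0.0418%. The lowest p there were those of MRT4 and NSA2, both at 0.21, and NOC3 at 0.15 (adjusted p = 0.98).

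The third comparison sets 2xDbp1 against Dbp1, which differ in the number of DBP1 copies. Footprints of all 39 factors were above Dbp1 by group mean, with a median log2 difference of 0.18 and a range from 0.01 to 0.27, where 51.9% of all genes were above. Both 2xDbp1 replicates exceeded both Dbp1 replicates for 34 factors, against 24% of all genes. In mRNA 35 factors were above, with a median of 0.10, where 47% of all genes were, and 20 did so without overlap, against 18.2%. None passed in limma, against 0% of all genes in footprints and 0.0192% in mRNA. At an unadjusted p under 0.05, 13 factors were higher in footprints, against 4.62% of all genes, and 2 in mRNA, against 3.39%. The footprint count was 0 without 2xDbp1 replicate 1, 2 without Dbp1 replicate 2, 5 without Dbp1 replicate 1 and 8 without either Ded1 replicate. The mRNA count was 0 without 2xDbp1 replicate 1 or Dbp1 replicate 2, 1 without Dbp1 replicate 1 or either Ded1 replicate, and 5 without 2xDbp1 replicate 2. The medians depended on the 2xDbp1 replicate, at 0.20 in mRNA with the first alone and 0.03 with the second alone, and at 0.24 and 0.12 in footprints.

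In footprints the lowest p were those of NMD3 at 0.23 (adjusted p = 0.492), RLP24 at 0.26 (0.498) and MRT4 at 0.21 (0.503). RLP24, which holds the place of a ribosomal protein until the particle reaches the cytoplasm, had footprints of 316.8 and 338.1 RPKM in Ded1, 276.6 and 262.3 in Dbp1, and 339.7 and 307.2 in 2xDbp1. Its 2xDbp1 libraries overlapped with Ded1 and not with Dbp1. In mRNA the lowest p were those of NOP12, RPF2 and NMD3, at 0.24, 0.25 and 0.21. NOP12, an RNA-binding factor of early particles, had 140.9 and 142.7 RPKM of mRNA in Ded1, 119.9 and 115.4 in Dbp1, and 142.5 and 136.7 in 2xDbp1, where 2xDbp1 again overlapped with Ded1 alone. Translational efficiency had a median difference of 0.05 against 0.02 over all genes. It was higher without overlap for 16 factors, against 24.9% of all genes, and 0 passed, against 0%. SPB1 at 0.25, NOC3 at 0.21 and EBP2 at 0.20 had the lowest p (adjusted p = 0.999).

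Group means placed Ded1 highest, 2xDbp1 next and Dbp1 lowest for 39 of 39 factors in footprints, where 24.9% of all genes had this order. In mRNA 35 of 39 did, against 16.5% of all genes, the others being SPB1, NOC3, REA1 and NOG2. In translational efficiency 8 of 39 did, against 17.5%. The 3 comparisons share libraries, so this order restates them and adds no test.

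Other genes of ribosome production stood near the factors in Dbp1 against Ded1, where 0.231% of all genes passed as lower in mRNA and 0.89% in footprints. Over 51 other 60S and shared nucleolar factors the median difference was -0.23 in mRNA and -0.28 in footprints, with 50 and 51 below 0. None of the 51 passed in mRNA. In footprints NOP13, an RNA-binding nucleolar protein, passed with a fall of 0.47 (adjusted p = 0.0429), and RSA4, a partner and substrate of REA1, with 0.51 (adjusted p = 0.0372). Over 12 helicases of 60S assembly the medians were -0.22 and -0.34, and DBP2, a DEAD-box helicase, fell by 0.57 in mRNA (adjusted p = 0.0351) and 0.68 in footprints (adjusted p = 0.014). Over 44 proteins of the small-subunit processome, which starts assembly of the 40S subunit, the medians were -0.27 and -0.34. There UTP30 fell by 0.53 in mRNA (adjusted p = 0.0484), and UTP22 and LCP5 fell by 0.43 and 0.57 in footprints (adjusted p = 0.0437 and 0.0416).

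RNA polymerase I, which transcribes the ribosomal RNA precursor, had medians of -0.25 over 13 subunits and associated factors in mRNA and -0.28 over 11 in footprints, where its largest subunit gene RPA190 fell by 0.41 (adjusted p = 0.0478). Ribosomal protein genes lay closer to 0. Those of the large subunit had medians of -0.13 over 75 genes in mRNA and -0.08 over 73 in footprints, and those of the small subunit -0.10 and -0.08 over 51. None of them passed. The 9 regulators of ribosome biogenesis genes were mixed, with medians of -0.14 in mRNA and -0.09 in footprints, and 5 and 8 below 0. Only TOD6, a repressor that binds promoters of such genes, passed, and its footprints fell by 0.52 (adjusted p = 0.0338). TOD6 mRNA differed by -0.31 (limma adjusted p = 0.312). STB3 went the other way, at 0.26 in mRNA and 0.20 in footprints. Each of these calls outside the 39 factors was lost without at least 1 library, with adjusted p-values up to 0.221. DBP2 footprints passed without 3 of 6 libraries, DBP2 mRNA, LCP5 and TOD6 without 1 of 6, and the others without 0 of 6.

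General stress genes were higher in Dbp1, where the factors were lower. Their summed mRNA, over 30 genes, was 944.6 to 1097 RPKM in Ded1, 2048 to 2551 in Dbp1 and 1250 to 1372 in 2xDbp1. In Dbp1 against Ded1, 14 of 29 tested passed as higher in mRNA and 21 of 26 in footprints, and 0 passed as lower. Their median differences were 1.17 and 1.58. By direction alone, 1 of 29 lay below 0 in mRNA and 0 of 26 in footprints, against 43% and 49.2% of all genes. Over all genes 1.52% and 3.31% passed in either direction, and the medians were 0.04 and 0.00. The filter on low values averaged the 3 genotypes, so a stress gene low in Ded1 could enter through its Dbp1 level. Of the 30 stress genes, 7 averaged under 5 RPKM of mRNA in Ded1, 1 in Dbp1 and 2 in 2xDbp1. In footprints these numbers were 10, 3 and 7. The stress counts and medians are therefore partly shaped by the filter, while the mRNA sums hold all 30 genes. Leaving out 1 library gave 0 to 14 calls in mRNA and 5 to 21 in footprints, fewest without Ded1 replicate 1, while the medians stayed between 1.02 and 1.22 and between 1.41 and 1.69. The part of stress or growth rate in the levels of the assembly factors was not tested.

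**Figure D5:**
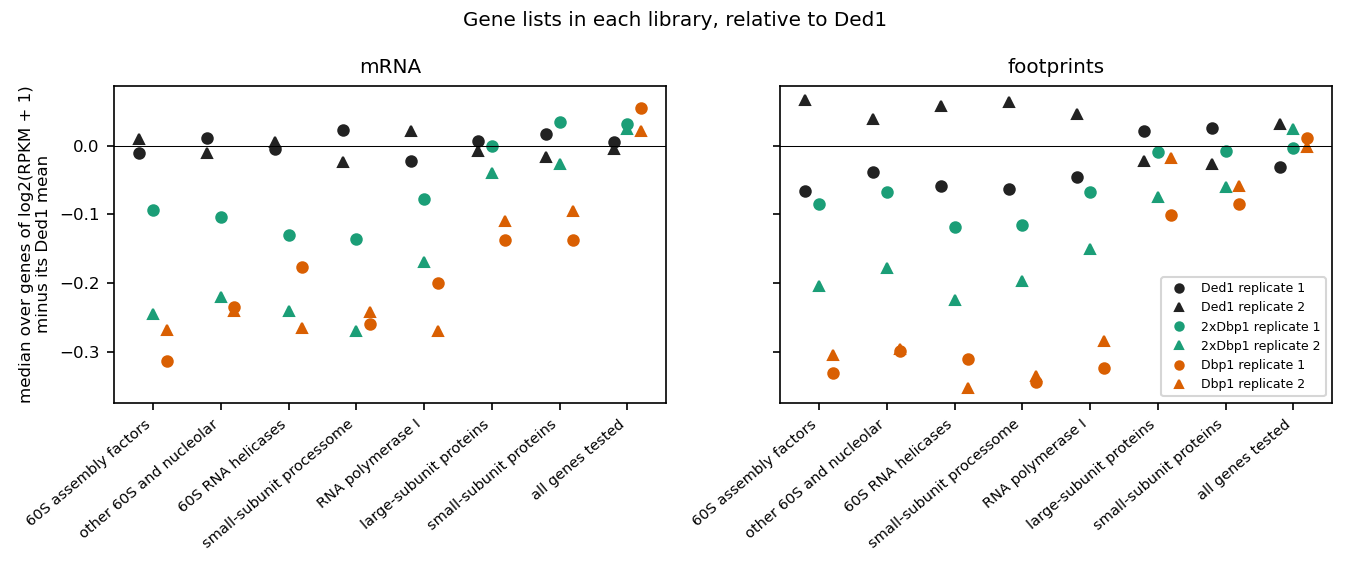
Median log2 level of each gene list in each library relative to the Ded1 mean, for mRNA and footprints. The 60S assembly factors lie at -0.31 and -0.27 in the 2 Dbp1 mRNA libraries and at -0.09 and -0.24 in those of 2xDbp1, near the other assembly lists, while the ribosomal protein lists lie closer to 0.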

How the data were processed

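Cells were harvested at an optical density of 0.6 and, per the labels' protocols, size selection took 28 to 31 nt for footprints and 50 nt for mRNA. The submitters' processing notes name CASAVA, bcl2fastq 2.17 and Bowtie2. The sources used here give no build, annotation or counting rules. Values were deposited as RPKM, 1 column for each of 12 libraries, and the unit was read from the values: low values are multiples of 1 step per library and inverse coding length. With 60 nt left out of each length, 83.79% to 87.75% of values up to 200 reads were whole within 0.02 reads, which gave the inferred depths. The search covered a fixed range of depths, and a true depth below it would have been given as a whole multiple of itself. Of 6159 gene IDs, 5637 matched the R64 reference table, which was used for names and coding lengths only.

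The main test was limma 3.58.1 in R 4.3.3, with trended empirical Bayes, on log2(RPKM + 1) over all genes with a mean of at least 5 RPKM, separately for mRNA (5198 genes) and footprints (4830 genes). The 3 genotypes shared 1 estimate of the spread. For translational efficiency (4785 genes) all 12 libraries entered a fit with a term for genotype by library type. Tests were 2-sided, with Benjamini-Hochberg adjustment over all genes and a threshold of 0.05. Fold changes on this scale understate changes of low genes, and all 39 factors passed the filter. The mRNA and footprint fits were run on simulated data with known changes, all larger than the differences of the factors. That simulation therefore does not show how the fits handle differences of their size. The translational efficiency fit was not simulated. Since the values are not raw counts, no count model was used, and promoter sequence was not used here. Python 3.11.15, pandas 2.3.3, numpy 2.4.6 and matplotlib 3.10.9 served for tables and plots.

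Same-numbered mRNA and footprint libraries of a genotype deviated together from their group means, with correlations of 0.533 in Ded1, 0.657 in Dbp1 and 0.417 in 2xDbp1, each over the bound of 0.1. Translational efficiency was therefore also fitted with these pairs. Its intervals, standard errors and p-values are from the fit without pairs unless the paired fit is named.

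Values per library are given for factors past the threshold, for the 3 lowest p in each comparison and readout (some by difference only), for the 2 highest and 2 lowest levels in Ded1, and for 10 factors named for their roles (NOP2, SPB1, NOP7, ERB1, YTM1, REA1, NOG1, NUG1, NMD3 and TIF6). Other factors are summarised by role. The factors, their role groups and the other gene lists were chosen with earlier results of these data known. The list of other 60S factors also holds nucleolar proteins shared with the small subunit. RRN5 and HO were listed and not matched, and PBF1 is an older name of TOD6 and was counted once. Alternatives were other pseudocounts and filters, rescaled libraries, a fit of only the genotypes compared, a replicate block, robust empirical Bayes and leaving out each replicate.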

Additional observations from a re-analysis of the deposited data

How the results depend on the processing

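The median difference of the factors in mRNA, Dbp1 against Ded1, was -0.348 after the libraries were rescaled to a common median ratio. Across the alternatives other than leaving out a replicate, it ran from -0.348 to -0.296 in mRNA and from -0.323 to -0.306 in footprints. Without 1 replicate it ran from -0.314 to -0.259 in mRNA and from -0.376 to -0.244 in footprints. In 2xDbp1 against Ded1 these ranges were -0.245 to -0.093 and -0.218 to -0.082, and in 2xDbp1 against Dbp1 0.034 to 0.197 and 0.116 to 0.243. In translational efficiency the medians changed sign without 1 replicate, from -0.089 to 0.021 in Dbp1 and from -0.036 to 0.09 in 2xDbp1 against Ded1, and ran from 0.051 to 0.088 in 2xDbp1 against Dbp1. The causes were not tested.

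In footprints, Dbp1 against Ded1, 1 factor passed, NMD3. The count was 0 with no filter on low values (NMD3 adjusted p = 0.0507 in limma), with only the 2 genotypes compared (0.111) and without each of the 6 libraries, and 2 with a minimum mean of 20 RPKM, robust empirical Bayes or rescaled libraries, where SSF1 joined NMD3 (adjusted p = 0.0461, 0.0479 and 0.0339). Leaving out libraries or a genotype also leaves fewer residual degrees of freedom. In the other comparisons and readouts 0 factors passed under every alternative. REA1 translational efficiency in Dbp1 against Ded1 reversed its sign, to 0.03, without Ded1 replicate 2, and without 1 replicate it ran from -0.52 to 0.03.

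With the replicate number as a block the footprint count was also 0, with NMD3 at an adjusted p of 0.055. Same-numbered libraries of different genotypes correlated from -0.107 to 0.355 in their deviations, over 0.1 for Ded1 with Dbp1 and Ded1 with 2xDbp1 and under 0.1 for 2xDbp1 with Dbp1. With 2 numbers, and no label tying them to a shared culture or day, they were not taken as pairs, and a shared batch was not tested. The paired fit of translational efficiency changed no call among the factors. At an unadjusted p under 0.05 the paired limma fit held 1 factor in 2xDbp1 against Ded1, against 12.5% of all genes. In 2xDbp1 against Dbp1 it held 2, against 9.3%. Without pairs both counts were 0. Over all genes, counts past the threshold moved by over 1.5 times under several alternatives: in Dbp1 against Ded1 from 79 in mRNA to 2 to 204 without 1 library, and from 160 in footprints to 22 to 244. They were 8 and 44 with only the 2 genotypes compared, and 96 in footprints with no filter. In 2xDbp1 against Ded1 they went from 4 in mRNA to 26 with only the 2 genotypes, 12 with robust empirical Bayes, 10 with a minimum mean of 20 RPKM, 7 under the block and 27 without a Dbp1 library, and from 3 in footprints to 12 with only the 2 genotypes, 5 under the block and 21 or 22 without a Dbp1 library. In 2xDbp1 against Dbp1 the mRNA count of 1 became 4 under the block, 2 with a pseudocount of 5 and 6 without Dbp1 replicate 1. In translational efficiency the 2 genes of 2xDbp1 against Ded1 became 5 in the paired fit and 3 with no filter.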
